A study of Mus musculus with 88 samples.

Results

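The 37 genes of the mouse mitochondrial genome were followed across 87 RNA libraries of the nucleus accumbens. Members were all rows of the deposited count table that are annotated to the mitochondrial chromosome. They are 13 protein-coding genes, 2 ribosomal RNA genes and 22 transfer RNA genes, of 55487 genes in all. All 37 were found by their gene identifiers.

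The nucleus accumbens is a reward region built mainly of medium spiny neurons that carry the D1 or the D2 dopamine receptor. Mice received one herpes simplex vector for CREB(S133D), a mutant of the transcription factor CREB that is always active, joined to a Cas9 that cannot cut DNA. Another vector carried a guide RNA, and tissue was taken 6 days after surgery. The guide was g11, directed to Fosb (targeted groups), or gNT, which has no target (control groups). Control mice thus also received the vectors and the activator. Female (F) and male (M) mice on a C57BL/6 background formed 6 arms. The D1 arms were D1-Cre mice with Cre-dependent virus, the D2 arms were D2-Cre mice with Cre-dependent virus, and the D1-D2 arms were D1-Cre mice with virus that does not need Cre. Ages were not given in the labels. With g11 and gNT the groups held 6 and 8 libraries (F_D1), 7 and 4 (M_D1), 8 and 8 (F_D2), 7 and 8 (M_D2), 12 and 8 (F_D1-D2), and 4 and 7 (M_D1-D2). The labels do not say whether each library came from 1 mouse or from pooled tissue. P-values therefore measure the spread between libraries. The RNA is from whole dissected tissue, so transduced and other cells were counted together. Fewer cells of a type and less RNA per cell cannot be told apart in it.

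The mitochondrial genome is a small circle that is transcribed from both strands into long precursors. Most of its products come from one strand, and transfer RNAs that lie between the other genes are cut out to release them. The protein-coding genes specify subunits of respiratory complex I (mt-Nd1 to mt-Nd6 and mt-Nd4l), complex III (mt-Cytb), complex IV (mt-Co1 to mt-Co3) and the ATP synthase (mt-Atp6 and mt-Atp8). mt-Rnr1 and mt-Rnr2 are the RNAs of the small and large mitochondrial ribosomal subunits. Neurons depend on this system for most of their ATP. The library kit is sold for the removal of cytoplasmic and mitochondrial ribosomal RNA, so the levels of both rRNAs are levels after depletion.

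Libraries held between 12430387 and 69568367 counts (median 31393804). Medium spiny neuron genes were found throughout, with medians of 295 CPM (a gene's count scaled to the library's total) for Drd1, 71.6 for Drd2 and 386 for Ppp1r1b, and with no library at 0. In 4 libraries, all with g11 (F_D2 17907 and 18432, F_D1-D2 19610, M_D1-D2 18919), the 10 most abundant genes held over 90% of counts. In these, 5 loci called ribosomal here (CT010467.1, Gm42418, AY036118, Lars2 and Gm15564) held 92.1% to 96.3% of counts, against a median of 0.381% over all libraries. The 5 loci were chosen after the data were seen and are taken to collect cytoplasmic ribosomal sequence. They were not aligned to ribosomal RNA, and Lars2 is annotated as a protein-coding gene. Sequencing batch 2 held 9 libraries, all male D2. Of the libraries labelled female, 4 had over 10 CPM summed over Ddx3y, Uty, Eif2s3y and Kdm5d, which are Y-linked. These were 17376 (F_D1 targeted, 88.8), 19749 (F_D1-D2 targeted, 102.5), 19598 and 19762 (F_D1-D2 controls, 26.1 and 14.1), while the other 46 had at most 3.59. The 37 male libraries ran from 10.1 to 277 with a median of 225, so all 4 lay within the male range. Libraries 18749 (M_D1-D2 targeted) and 18722 (M_D1 targeted) had the closest profiles of any pair from different groups (r = 0.998). Fosb itself did not pass edgeR in any arm. Its log2 fold changes with g11 were 0.41 ± 0.23 (F_D1), 0.48 ± 0.28 (M_D1), −0.37 ± 0.23 (F_D2), −0.30 ± 0.25 (M_D2), 0.08 ± 0.20 (F_D1-D2) and 0.60 ± 0.27 (M_D1-D2), with adjusted p of 0.695 or more.

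Sequences of 4 transfer RNAs show the extremes of that class, with the anticodon in capitals. They come from GENCODE M21 transcripts on GRCm38, the assembly called mm10, and are written 5′ to 3′ on the strand of the gene. mt-Tn, for asparagine (chrM:5089-5159, minus strand), and mt-Tc, for cysteine (chrM:5192-5257, minus strand), had the highest median counts. mt-Td, for aspartate (chrM:6942-7011, plus strand), and mt-Tk, for lysine (chrM:7700-7764, plus strand), had medians of 0.
mt-Tn: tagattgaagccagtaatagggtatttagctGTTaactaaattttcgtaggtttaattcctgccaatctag
mt-Tc: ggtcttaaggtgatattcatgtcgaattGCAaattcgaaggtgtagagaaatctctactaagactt
mt-Td: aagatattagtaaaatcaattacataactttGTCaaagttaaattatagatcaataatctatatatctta
mt-Tk: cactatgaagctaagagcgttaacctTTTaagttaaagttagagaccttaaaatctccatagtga

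A stretch of chromosome 1 holds copies of 8 mitochondrial mRNA genes that are annotated as unprocessed pseudogenes, and these matter for every value of those genes. Alignment of the transcripts matched all 681 bases of Gm28661 to mt-Co2, all 678 of Gm10925 to mt-Atp6, all 783 of Gm28437 to mt-Co3, all 294 of Gm10222 to mt-Nd4l and all 876 of Gm28439 to the 5′ part of mt-Nd4. Gm10925 also covers the 43 bases in which mt-Atp8 and mt-Atp6 overlap. Gm28438 matched mt-Nd3 over 345 bases with 1 mismatch, T3C (the mitochondrial base, the position from the start of mt-Nd3, the base of the copy), and Gm29216 matched mt-Co1 over 483 bases with 1 mismatch, A1066T. A read that lies within these stretches matches both places, so counts of these genes are uncertain. The opening 90 bases of mt-Co2 (chrM:7013-7102, plus strand) and of Gm28661 (chr1:24615476-24615565, minus strand) are the same letters. Those of mt-Nd3 (chrM:9459-9548, plus strand) and Gm28438 (chr1:24613030-24613119, minus strand) differ at the base in capitals.
mt-Co2: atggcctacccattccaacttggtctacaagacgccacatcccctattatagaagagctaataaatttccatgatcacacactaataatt
Gm28661: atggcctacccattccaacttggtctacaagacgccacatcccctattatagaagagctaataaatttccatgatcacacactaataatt
mt-Nd3: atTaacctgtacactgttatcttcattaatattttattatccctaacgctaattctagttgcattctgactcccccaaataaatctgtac
Gm28438: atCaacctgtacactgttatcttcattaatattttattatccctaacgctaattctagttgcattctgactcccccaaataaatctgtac

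The 2 rRNAs held most mitochondrial counts, and mt-Rnr2 most of these. Over all libraries the median share of total counts was 5.78% for rRNA (0.385% to 20.7%), 0.523% for mRNA (0.0263% to 1.78%) and 0.0185% for tRNA (0.000756% to 0.0501%). Per kilobase of gene, the median level was 33419 CPM for mt-Rnr2 and 6494 for mt-Rnr1. Among mRNAs the order per kilobase was mt-Co1 (1810 CPM), mt-Nd1 (898), mt-Cytb (638), mt-Nd2 (233), mt-Nd4 (160), mt-Nd5 (97.8) and mt-Nd6 (68.2). The mRNAs of mt-Co3 (59.9), mt-Nd3 (50.9), mt-Co2 (15.3), mt-Atp6 (8.04), mt-Atp8 (4.01) and mt-Nd4l (1.31) followed.

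The 6 lowest mRNAs per kilobase were the 5 with copies over nearly their whole length and mt-Atp8, which shares its end with one of them. mt-Co1 and mt-Nd4, which are copied in part, were not among them. The tRNAs inside the copied stretch were also low, except for mt-Tg (153 CPM per kilobase). mt-Td was at 0 in 49 libraries and mt-Tk in 70. mt-Tr had a median of 8.23 and mt-Ts1, encoded on the opposite strand within it, 18.4 CPM per kilobase. The 3 tRNAs that follow mt-Nd4 were low as well, at 4.86 for mt-Th, 2.36 for mt-Ts2 and 8.48 for mt-Tl2.

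**Figure D1:**
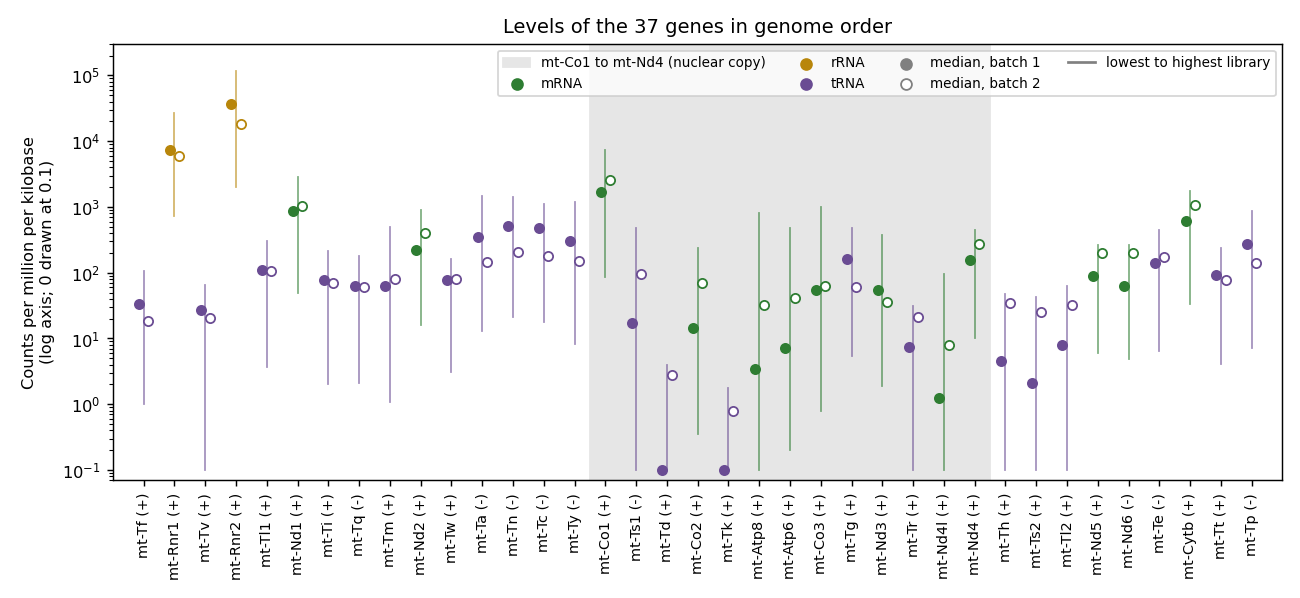
Level of each of the 37 genes, in CPM per kilobase of gene on a log axis, in the order in which the genes lie on the mitochondrial chromosome with their strand. Circles are medians over the 78 libraries of batch 1 (filled) and the 9 of batch 2 (open). Lines run from the lowest to the highest library, and the grey band spans the genes from mt-Co1 to mt-Nd4. In batch 1 mt-Co1, mt-Nd4 and mt-Tg had the highest medians within the band, and its other genes at most 55.0 (mt-Nd3). The tRNAs that follow the band, mt-Th, mt-Ts2 and mt-Tl2, had batch 1 medians of at most 7.86.

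The strands were unequally represented in the mRNA class and in the tRNA class, in opposite directions. The 12 mRNAs of the plus strand held a median of 99.3% of mRNA counts (98.4% to 99.9%). mt-Nd6, the only mRNA of the minus strand, held 0.749% (0.148% to 1.62%). The 8 minus-strand tRNAs held 74.5% of tRNA counts (53.6% to 85.8%), although 14 of the 22 tRNAs are encoded on the plus strand. The 5 tRNAs with the highest median counts were all on the minus strand: mt-Tn (1062 counts), mt-Tc (941), mt-Ta (664), mt-Ty (634) and mt-Tp (567). The tRNA genes are only 59 (mt-Ts2) to 75 bases (mt-Tl1) long, and gene counts do not separate mature tRNAs from longer precursors. Their counts here and below are therefore not levels of mature tRNA. The submitters' library kit is stranded, but the sources used here do not say whether strand was used in counting. If it was not, reads of mt-Nd5 and mt-Nd6 where they overlap by 14 bases, and minus-strand tRNA reads and any plus-strand precursor, cannot be told apart.

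The chromosome 1 copies have rows of their own in the count table, and the size of their counts relative to those of the mitochondrial genes varied. In batch 1 the median count of the copy as a percent of the count of its mitochondrial gene was 119% for Gm10925 over mt-Atp6, 58.6% for Gm28661 over mt-Co2, 43.6% for Gm28437 over mt-Co3, 25% for Gm28438 over mt-Nd3 and 23.5% for Gm10222 over mt-Nd4l. It was 0.349% for Gm28439 over mt-Nd4 and 0.238% for Gm29216 over mt-Co1. The copies had higher medians in batch 2, with CPM of 64.4 against 5.20 for Gm28661, 11.7 against 0.699 for Gm28439 and 9.38 against 5.01 for Gm28438. Batch 2 is all male D2 and batch 1 covers all 6 arms, so these medians mix batch with arm and sex. In the edgeR fit with group and batch, Gm28438 differed by 0.14 ± 0.55 on the log2 scale (edgeR adjusted p = 0.841). The other copies rose there by 1.13 (Gm28437) to 4.41 (Gm10222). In batch 2 the percentages were 197% (mt-Atp6), 124% (mt-Co2), 147% (mt-Co3), 70.9% (mt-Nd3) and 133% (mt-Nd4l). In 4 of these the copy thus had more counts than the mitochondrial gene.

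Over all 87 libraries, the copied genes other than mt-Co1 and mt-Nd4 also spread more than mt-Nd2, mt-Nd5 and mt-Cytb, which have no copy. By annotated transcript, mt-Co1, mt-Nd4 and mt-Atp8 are copied in part, mt-Atp8 over 43 of its 204 bases. Bases that lie between the annotated copies were not aligned, so the full length copied of mt-Atp8 is not known here. Counts were set per 1000 counts of mt-Nd1 in the same library, a scale chosen once the values were known. On that scale the coefficient of variation over the 87 libraries was 0.183 for mt-Cytb, 0.219 for mt-Nd4, 0.286 for mt-Co1, 0.298 for mt-Nd2 and 0.306 for mt-Nd5. It was 0.693 for mt-Nd3, 0.809 for mt-Co2, 1.28 for mt-Co3, 1.57 for mt-Nd4l, 1.89 for mt-Atp6 and 2.83 for mt-Atp8. mt-Nd6, which also has no copy, was not set on this scale, and its share of mRNA counts ran from 0.148% to 1.62%. Median counts were 5468 (mt-Nd5) to 82915 (mt-Co1) for the genes with the lower coefficients. They were 13 (mt-Nd4l) to 1476 (mt-Co3) for the genes from mt-Nd3 to mt-Atp8 in this list. The part of count level in the wider spread of these genes was not tested.

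The highest values of these genes came from different single libraries. mt-Atp8 had a median of 1.03 counts per 1000 of mt-Nd1 and stood at 105 in library 19596 (F_D1-D2 targeted), and 6 libraries exceeded 10 times the median. mt-Atp6 had a median of 6.29 and reached 247 in library 19598 (F_D1-D2 control), with 3 libraries over 10 times the median. mt-Co3 had a median of 49.9 and reached 763 in library 19099 (M_D2 control), alone above that mark. mt-Nd4l had a median of 0.461 and reached 10.3 in library 18366 (M_D1 targeted). Some libraries were high for several of these genes: library 18421 (F_D2 control) exceeded 10 times the median for both mt-Atp8 and mt-Atp6, and library 18419 (F_D2 targeted) did so for mt-Atp8 and was the highest for mt-Co2, at 67.4. No library exceeded 3 times the median for mt-Cytb, mt-Nd2, mt-Nd5, mt-Nd4 or mt-Co1.

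**Figure D2:**
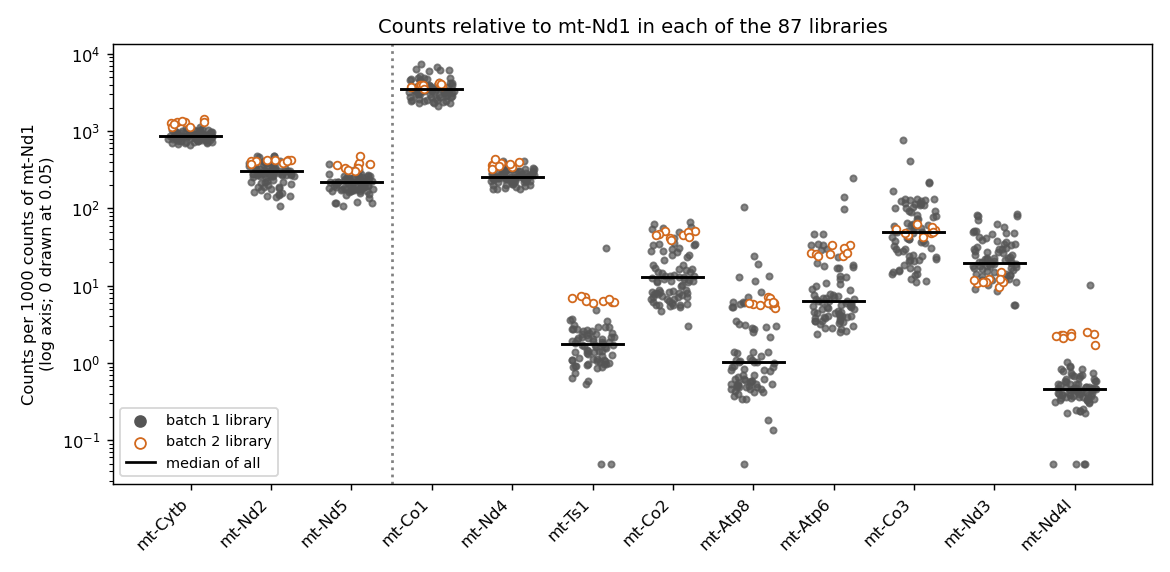
Counts of 12 mitochondrial genes per 1000 counts of mt-Nd1 (log axis) in each of the 87 libraries, filled grey for batch 1 and open orange for batch 2, with a bar at the median of all; the dotted line separates 3 mRNAs outside the copied stretch from the genes within it. mt-Atp8, mt-Atp6 and mt-Co3 have single libraries far above the rest, at 105, 247 and 763, while mt-Cytb, mt-Nd2 and mt-Nd5 form narrow columns.

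The mitochondrial share of total counts ran from 0.412% to 22.5% with a median of 6.56%. M_D1 controls covered 7.12% to 11.6% and M_D1 targeted libraries 3.71% to 22.5%. Library 18366 (M_D1 targeted) was highest and library 19610 (F_D1-D2 targeted) lowest. The lowest 4 libraries were those with over 90% of counts in 10 genes (0.412%, 0.471%, 0.776% and 1.16%). Outside the 5 ribosomal loci their mitochondrial share was 11.0%, 9.31%, 9.84% and 15.3%, within the range of the other libraries (1.98% to 22.9%). This denominator was chosen after the data were seen.

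Control groups had mean mitochondrial shares of 5.69% ± 3.20 (SD, n = 8, F_D1), 9.97% ± 1.96 (n = 4, M_D1), 7.27% ± 2.69 (n = 8, F_D2), 7.63% ± 5.11 (n = 8, M_D2), 8.06% ± 5.70 (n = 8, F_D1-D2) and 9.36% ± 4.27 (n = 7, M_D1-D2). Targeted groups had 7.31% ± 2.30 (n = 6), 10.4% ± 6.21 (n = 7), 6.35% ± 5.33 (n = 8), 6.27% ± 3.91 (n = 7), 5.94% ± 4.04 (n = 12) and 5.19% ± 4.14 (n = 4) in the same order. The groups overlapped in every arm. The largest difference, −4.17 percentage points in M_D1-D2, lay between 4 targeted libraries at 0.776%, 2.84%, 7.24% and 9.91% and 7 controls at 5.16% to 16.4%. It did not pass an exact two-sided permutation test (p = 0.142, adjusted p = 0.629). With 1 targeted library left out it ranged from −5.74 (without library 18749) to −2.70 (without 18919, 1 of the 4 libraries with over 90% of counts in 10 genes).

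**Figure D3:**
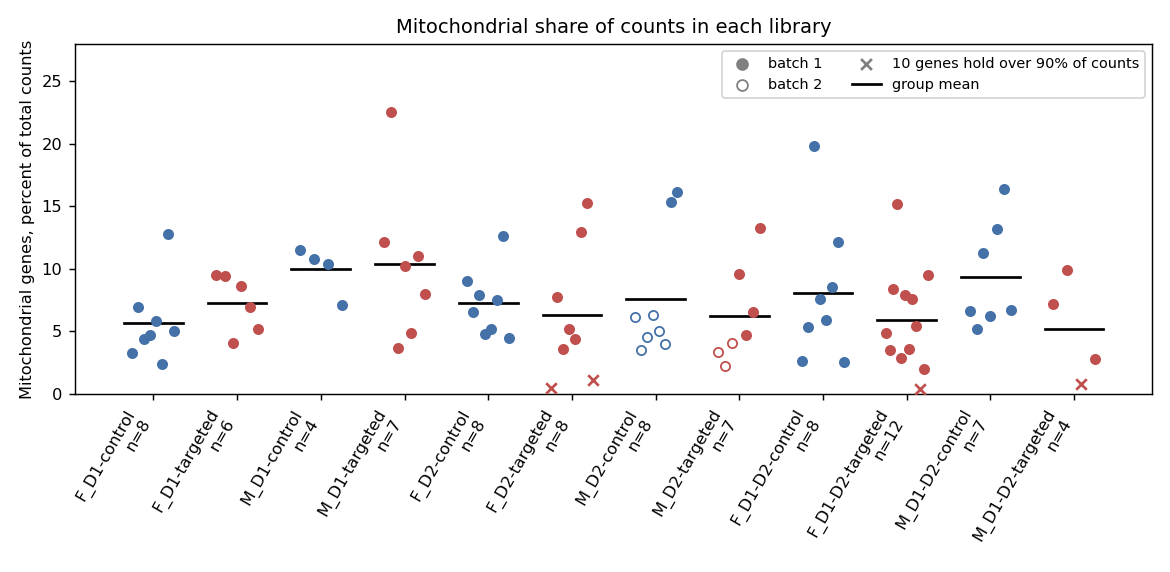
Counts of the 37 mitochondrial genes as a percent of all counts in each library, by group, with control groups in blue and targeted groups in red. Open circles are batch 2, crosses are the 4 libraries with over 90% of counts in 10 genes, and black bars are group means; points run from 0.412% to 22.5%, targeted and control groups overlap in every arm, and all 9 batch 2 libraries sit below the batch 1 controls of M_D2.

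The question of the guide comparison was whether directing the activator to Fosb changed these transcripts in any arm. In all, 5 library measures were tested by exact two-sided permutation in the 6 arms: the mitochondrial share, the log2 ratios of rRNA and of tRNA to mRNA, the log2 ratio of mt-Nd6 to the other 12 mRNAs, and the log2 ratio of mitochondrial mRNA to nuclear protein-coding counts. None of these 30 tests had an adjusted p under 0.05, and the lowest was 0.629. Unadjusted, 2 had p under 0.05, both in M_D1.

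In M_D1 the log2 rRNA to mRNA ratio was 4.66, 4.54, 4.46 and 4.37 in the 4 controls, and the 7 targeted libraries ran from 3.15 to 4.50 (difference −0.73, exact permutation p = 0.0242, adjusted 0.629). The controls lay close together at the upper end of the targeted libraries. The log2 ratio of mt-Nd6 to the other mRNAs was −6.35, −6.46, −6.99 and −6.96 in the controls and −8.57 to −6.70 in the targeted libraries (difference −0.90, exact permutation p = 0.0485, adjusted 0.629). In F_D1 and F_D1-D2 that difference had the other sign, at 0.59 and 0.52, with adjusted p of 0.629 in both by the same exact test. It did not pass in any arm.

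M_D2 was the only arm with both sequencing batches, and its guide differences changed when batches were kept apart. Pooled, the mitochondrial share differed by −1.36 percentage points (exact permutation p = 0.582). Permuted within batches it differed by −3.89 points (exact p = 0.0103, adjusted 0.310). It was −7.21 points in batch 1 alone, with 2 controls at 15.4% and 16.1% and 4 targeted libraries at 4.71%, 6.56%, 9.63% and 13.3% (exact p = 0.133, adjusted 0.559). In batch 2 alone it was −1.68 points, with 6 controls at 3.49% to 6.32% and 3 targeted libraries at 2.24%, 3.35% and 4.12% (exact p = 0.0833, adjusted 0.559). The log2 rRNA to mRNA ratio differed by 0.04 pooled (exact p = 0.948) and by −0.57 within batches (exact p = 0.0302, adjusted 0.452), with −1.23 in batch 1 and −0.13 in batch 2. Neither measure passed after adjustment. In batch 1 the smallest p that 15 splits allow is 0.0667.

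Gene by gene, no mitochondrial gene passed in any arm. The filter on low counts kept 35 of the 37, leaving out mt-Td and mt-Tk. By edgeR's quasi-likelihood test with Benjamini-Hochberg adjustment over 25420 genes, 0 of 35 passed in F_D1, against 0.00393% of all genes tested. The count was 0 against 0% in M_D1, 0 against 0% in F_D2, 0 against 0.0629% in M_D2, 0 against 0% in F_D1-D2 and 0 against 0.00393% in M_D1-D2. For the mean of the 6 arms it was 0 against 0%. At an unadjusted p under 0.05 edgeR had 1 (F_D1), 2 (M_D1), 0 (F_D2), 2 (M_D2), 2 (F_D1-D2), 0 (M_D1-D2) and 1 (mean of arms) of 35, beside 1139, 1807, 421, 553, 864, 818 and 2419 of the 25420 genes tested. DESeq2 and limma-voom also called 0 of 35 in each arm and for the mean. Over all genes limma-voom called 458 higher and 288 lower in M_D1 and 193 higher in F_D1-D2, where edgeR called 0.

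Median log2 fold changes of the 35 genes were 0.27 (F_D1), 0.01 (M_D1), 0.21 (F_D2), −0.37 (M_D2), 0.12 (F_D1-D2) and −0.46 (M_D1-D2), beside medians of all genes between −0.03 and 0.03. In M_D2 1 of 35 was above 0, in M_D1-D2 0, and in F_D1 29. With total counts in place of TMM scaling the median of all genes moved to −0.34 in F_D2 and −0.21 in F_D1-D2, and that of the 35 genes to −0.13 and −0.06, still above the rest. It moved to 0.18 in M_D1 and −0.30 in M_D1-D2, with the 35 genes at 0.19 and −0.85. Single libraries also moved the medians of the 35 genes: M_D1 had −0.30 without 18366, F_D1-D2 −0.05 without 19596, F_D2 0.39 without 18421 and M_D1-D2 −0.28 without 19211. Genes cut from a common precursor are not independent of each other, so these counts are not repeated observations. mt-Rnr2 had −0.81 ± 0.41 (SE) in M_D2 and −0.39 ± 0.48 in M_D1-D2, and mt-Cytb had −0.31 ± 0.35 and −0.25 ± 0.38.

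The 3 fold changes of largest size in the arms were those of mt-Nd4l and mt-Co2 in M_D1 and mt-Atp8 in F_D1-D2, and each was far smaller or of the other sign without 1 library. In M_D1 mt-Nd4l differed by 3.13 ± 0.83 on the log2 scale (edgeR p = 0.000294, adjusted 0.686). Its CPM was 0.417, 0.432, 0.445 and 0.571 in the controls and 28 in targeted library 18366, while the other 6 targeted libraries ran from 0.199 to 0.614. mt-Co2 differed by 2.44 ± 0.97 (edgeR adjusted p = 0.686), and the same library had 153 CPM of it, against 3.30 to 10.5 in the 4 controls and 4.90 to 26.2 in the other targeted libraries. Without library 18366 the log2 differences were −0.77 ± 0.51 for mt-Nd4l and 0.88 ± 0.86 for mt-Co2. In F_D1-D2 mt-Atp8 differed by 2.95 ± 1.02 (edgeR p = 0.00501, adjusted 1) with 167 CPM in targeted library 19596, and mt-Atp6 by −1.75 ± 0.72 (p = 0.0165, adjusted 1) with 329 CPM in control library 19598. Without these libraries they were 0.46 ± 0.85 and 0.51 ± 0.69. Medians of the groups were 1.07 CPM (targeted) and 0.883 (control) for mt-Atp8.

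The balance of the classes differed between sequencing batches. In M_D2, within each guide, batch 2 had a lower mitochondrial share by 7.88 percentage points, a lower log2 rRNA to mRNA ratio and a lower log2 tRNA to mRNA ratio, and a higher share of mt-Nd6. The differences of the ratios were −1.89, −1.35 and 1.28. Each had p = 0.00102 by exact permutation within guide, the smallest that 980 splits give, and an adjusted p of 0.00128 over 5 measures. The log2 ratio of mitochondrial mRNA to nuclear protein-coding counts differed by −0.07 (exact p = 0.757). Mitochondrial mRNA held a mean of 0.572% of counts in the 2 batch 1 controls and 0.845% ± 0.156 (SD, n = 6) in the batch 2 controls, while rRNA held 15.1% and 4.06%.

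For single genes, 22 of 35 passed between batches by edgeR, 8 higher and 14 lower in batch 2, beside 62.3% of all genes tested (32.6% higher and 29.7% lower). With calls in most of the transcriptome, this share is near the background. The rRNAs mt-Rnr2 (−2.12 ± 0.41) and mt-Rnr1 (−1.38 ± 0.51) were lower in batch 2 (adjusted p = 5.09e-06 and 0.0146). mt-Rnr2 was at 131199 and 139075 CPM in the batch 1 controls and 23550 to 43821 in the 6 batch 2 controls, with no overlap. In targeted libraries it was at 39347 to 109093 in batch 1 and 15017 to 28426 in batch 2.

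Of the 20 tRNAs tested, 10 were lower and 5 higher. The 5 tRNAs with the highest counts fell together: mt-Tn by 2.13, mt-Tc by 2.10, mt-Ta by 2.05, mt-Tp by 1.87 and mt-Ty by 1.70 on the log2 scale. mt-Tn had 43.0 and 63.9 CPM in the batch 1 controls and 10.8 to 19.6 in the batch 2 controls. mt-Tg (−2.40 ± 0.36), mt-Tf (−1.81), mt-Tv (−1.53), mt-Tt (−1.04) and mt-Tw (−0.72) were also lower. The 5 that rose, mt-Ts2 (3.31 ± 0.42), mt-Th (2.27 ± 0.42), mt-Ts1 (1.82), mt-Tl2 (1.55) and mt-Tr (0.88), had few counts in batch 1. mt-Ts2, a serine tRNA, was at 0.121 and 0.123 CPM in the batch 1 controls and 1.30 to 2.14 in the batch 2 controls. mt-Th, mt-Ts2 and mt-Tl2 lie next to each other between mt-Nd4 and mt-Nd5.

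Of the 13 mRNAs, 3 were higher and 2 lower in batch 2. mt-Nd6 rose by 1.08 ± 0.42, from 34.6 and 50.4 CPM in the batch 1 controls to 90.7 to 125 in those of batch 2. mt-Co2 (2.11 ± 0.85) and mt-Nd4l (1.87 ± 0.66) rose, and mt-Nd3 (−1.54 ± 0.53) and mt-Co3 (−1.88 ± 0.76) fell, and all 4 are copied genes. mt-Co3 was at 777 CPM in 1 batch 1 control and 26.9 in the other, beside 37.9 to 77.3 in the batch 2 controls. Without that library, 19099, the difference of mt-Co3 was −0.27 (adjusted p = 0.835), and mt-Nd3 (adjusted p = 0.0689), mt-Co2 (0.0736) and mt-Ts1 (0.0516) also missed the threshold. Without 18386, the other batch 1 control, mt-Co2 (0.0604) and mt-Tr (0.0702) missed it. The 6 mRNAs mt-Nd1, mt-Nd2, mt-Co1, mt-Nd4, mt-Nd5 and mt-Cytb had log2 fold changes between −0.32 and 0.51, and none passed.

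**Figure D4:**
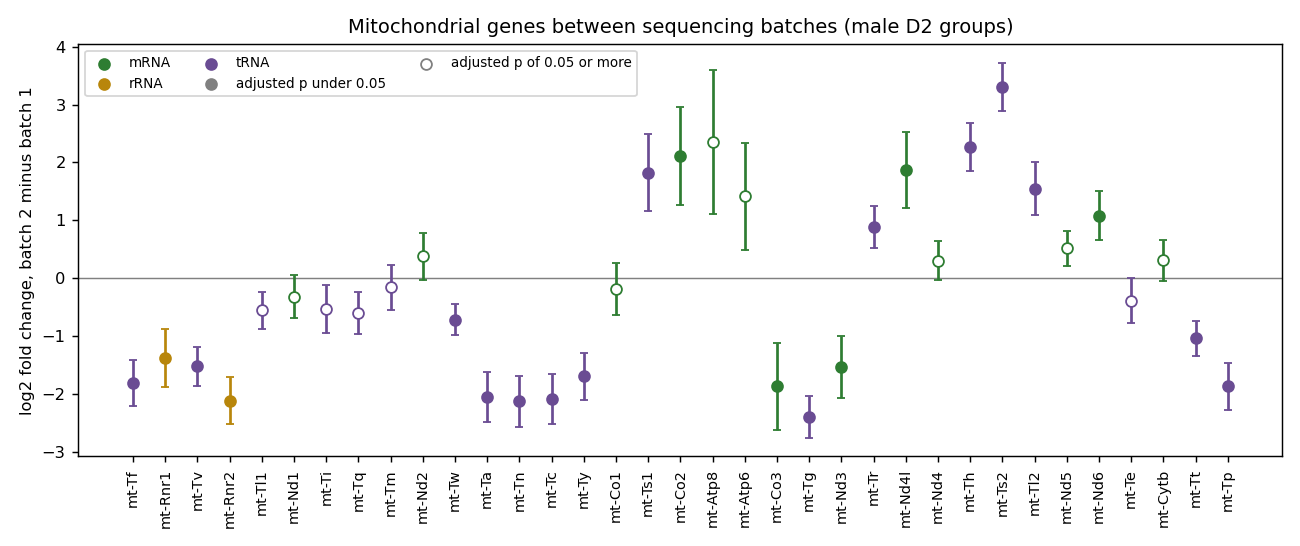
Log2 fold change of the 35 tested mitochondrial genes between sequencing batches (batch 2 minus batch 1, from male D2 libraries) with standard errors, in genome order; filled symbols have an adjusted p under 0.05 by edgeR. Both rRNAs and 15 tRNAs lie below 0, 10 of these tRNAs with filled symbols, the 5 tRNAs above 0 lie within or next to the copied stretch, and 6 of the 13 mRNAs lie between −0.32 and 0.51.

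Other measures moved with batch, and their part in these differences was not tested. Nuclear small and ribosomal RNA genes held 9.88% of counts in batch 1 controls of M_D2 and 1.36% ± 0.258 (SD, n = 6) in those of batch 2, and Rn7sk, a nuclear small RNA, was lower by 3.58 on the log2 scale. Red blood cell markers were lower in 5 of 5, with summed levels of 511 and 536 CPM in the batch 1 controls and 35.7 to 101 in those of batch 2, and none was at 0 in all libraries of a batch and guide. Over all genes 29.7% were lower and 32.6% higher. Cortical glutamatergic markers were higher in 5 of 8, with 57.1 and 325 CPM in the batch 1 controls and 27.1 to 1294 in those of batch 2. In the targeted libraries the same sum was 9.51 to 25.2 (batch 1) and 223 to 1139 (batch 2). Of the other lists, 4 of 10 medium spiny neuron, 3 of 6 astrocyte, 3 of 6 oligodendrocyte, 3 of 6 microglia, 2 of 4 endothelial and 1 of 4 choroid plexus and ependymal markers were lower, and 3, 0, 1, 1, 1 and 0 were higher. None of the 6 lymphocyte markers passed. All batch 1 to batch 2 differences rest on 6 batch 1 libraries of 1 arm.

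Female and male controls differed in 6 of 35 mitochondrial genes, 5 lower and 1 higher in females, beside 28.6% of all genes tested (13.2% lower and 15.3% higher). This is below the background share. The contrast averages the 3 arms and holds batch constant. mt-Rnr2 (−0.74 ± 0.25), mt-Nd5 (−0.52 ± 0.19), mt-Tg (−0.93 ± 0.22), mt-Tv (−0.85 ± 0.21) and mt-Tf (−0.66 ± 0.25) were lower in females by edgeR (adjusted p = 0.0201, 0.026, 0.00128, 0.00185 and 0.0384). mt-Tg, a glycine tRNA, had group means of 9.70 (F_D1), 10.7 (F_D2) and 9.13 CPM (F_D1-D2) in female controls and 22.6 (M_D1), 7.87 (M_D2) and 14.6 (M_D1-D2) in male controls. These means are not adjusted for batch. The M_D2 controls were 6 of batch 2, where mt-Tg was lower, and 2 of batch 1. Female and male controls overlapped in each arm for all 5 genes. For mt-Tv in the D1 arms, males ran from 2.79 to 3.37 CPM and females from 0.442 to 2.96. mt-Atp6 was higher in females (1.53 ± 0.58, adjusted p = 0.039), with 329 CPM in F_D1-D2 library 19598 and 236 in F_D2 library 18421 and medians of 8.76 and 14.5 in those groups. Without 19598 its difference was 0.77 (adjusted p = 0.257) and without 18421 it was 1.15 (0.106). Without the 4 libraries labelled female with Y-linked counts 5 genes passed, among them mt-Rnr2, mt-Tg and mt-Tv, while mt-Atp6 (0.21), mt-Tf (0.0717) and mt-Nd5 (0.0501) did not. Without male control 19099, 3 genes passed. Without the batch term 6 genes passed, but mt-Nd5 was the only 1 of the original 6 among them, and mt-Rnr2 had −0.36 (adjusted p = 0.366). With total counts in place of TMM scaling none of the 6 passed; over all genes the split of higher and lower calls was then 6 and 6, against 3900 and 3359 with TMM and 2792 and 5064 with DESeq2 size factors.

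The 2 sexes were not matched for other measures. Among marker lists, 3 of 10 medium spiny neuron markers, 2 of 6 astrocyte markers and 2 of 6 microglia markers were higher in female controls, as were 1 of 6 oligodendrocyte and 1 of 4 endothelial markers, beside 15.3% of all genes. None of the cortical glutamatergic (8), lymphocyte (6), choroid plexus and ependymal (4) and red blood cell (5) markers passed in either direction. The summed medium spiny neuron markers ran from 950 to 5410 CPM in female controls and from 936 to 5059 in male controls. None of these markers' part in the mitochondrial difference was tested.

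The balance of mt-Nd1, mt-Nd2, mt-Co1 and mt-Cytb, which have no copy or, for mt-Co1, a partial one, varied between libraries. The log2 ratio of mt-Nd2 to mt-Nd1 ran from −3.24 (library 19598) to −1.05 (library 17376), and the log2 ratio of mt-Co1 to mt-Cytb from 1.30 to 3.10 in the same 2 libraries, in reverse. Both are among the libraries labelled female that carry Y-linked counts. These ratios share no gene but were chosen after the values were seen, so their correlation is given as a description with no test. Across the 78 libraries of batch 1 Pearson's r was −0.913 and Spearman's rho −0.832. Without the 2 libraries farthest from the median mt-Nd2 to mt-Nd1 ratio r was −0.895, and without the 4 libraries with over 90% of counts in 10 genes it was −0.922. Within batch 2 (n = 9) r was −0.804 and rho −0.500, and r was −0.0397 without the 2 farthest, so it rests on those 2.

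**Figure D5:**
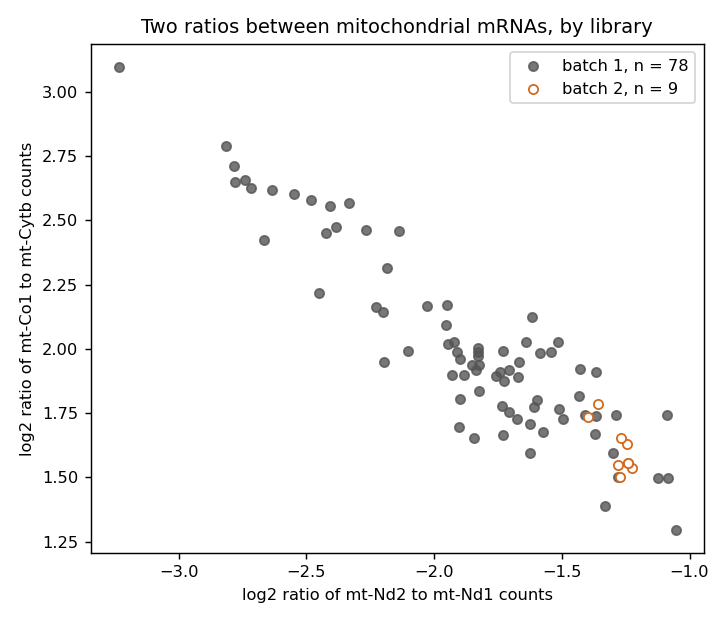
Log2 ratio of mt-Co1 to mt-Cytb counts against the log2 ratio of mt-Nd2 to mt-Nd1 counts, 1 point per library, filled for batch 1 (n = 78) and open for batch 2 (n = 9). Libraries with more mt-Nd1 relative to mt-Nd2 had more mt-Co1 relative to mt-Cytb (r = −0.913 in batch 1), and batch 2 libraries cluster at the lower right.

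In counts, library 19598 had 4681 of mt-Nd2 and 44098 of mt-Nd1, and library 17376 had 25112 and 52143. Library 19598 had 325331 of mt-Co1 and 38039 of mt-Cytb, and library 17376 had 133433 and 54325. The same mt-Nd2 to mt-Nd1 ratio was higher where the log2 ratio of mt-Nd6 to mt-Nd5, which lie on opposite strands, was higher (batch 1 r = 0.739, rho = 0.714), again a description of ratios chosen after the values were seen. That relation had r = 0.733 without the 2 farthest libraries. In batch 2 (n = 9) r was 0.597, and 0.0894 without the 2 farthest, so there it rests on those 2. Group means of the mt-Nd2 to mt-Nd1 log2 ratio lay between −2.12 (F_D1-D2 control) and −1.39 (M_D2 control), with SDs of 0.25 to 0.67 within groups. In M_D2 the SD was 0.05 among the 6 batch 2 controls and 0.48 among the 4 batch 1 targeted libraries.

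Nuclear genes that serve the mitochondrial genome did not pass between guides. In the 6 arms and their mean, edgeR called 0 of 33 genes of mitochondrial transcription and RNA maturation, 0 of 14 of mitochondrial DNA replication, 0 of 51 rows of nuclear-encoded respiratory chain subunits (Atp5o has 2) and 0 of 78 mitochondrial ribosomal proteins. Over all genes tested the share called was 0% to 0.0629% in the arms and 0% for the mean, so these counts are near the background. The respiratory subunits had a median log2 difference of −0.24 in M_D1, where 7 of 51 were above 0, beside 0.40 for the 13 mitochondrial mRNAs. The medians were −0.13 and 0.27 in F_D1, −0.05 and 0.34 in F_D2, 0.00 and −0.42 in M_D2, 0.03 and 0.24 in F_D1-D2, and −0.15 and −0.37 in M_D1-D2. Medians of both kinds thus had opposite signs in F_D1, M_D1 and F_D2 and the same sign in F_D1-D2 and M_D1-D2, and the difference was not tested. In M_D1 the median of all 35 mitochondrial genes was 0.01 with all libraries and −0.30 without library 18366. That of the 13 mRNAs without this library is not given here.

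Between batches 47 of the 51 respiratory subunit rows were lower and 1 was higher in batch 2, with a median of −1.11. Cox4i1, of complex IV, fell by 3.0, Atp5o of the ATP synthase by 2.20 and Uqcrq of complex III by 1.68. Of 78 mitochondrial ribosomal proteins 71 were lower and 1 was higher, with the lowest p for Mrpl2 (−2.18 ± 0.09). Of 33 transcription and maturation genes 18 were lower and 4 higher. Over all genes tested 29.7% were lower and 32.6% higher. Tfam, which packs the genome and helps to start its transcription, fell by 0.69 ± 0.09. Hsd17b10, a subunit of mitochondrial RNase P, fell by 1.55 and Mrm2, an rRNA methyltransferase, by 1.90. The replication genes had 5 lower and 2 higher of 14, a share of lower genes near that of all genes, among them Slc25a4, the ADP/ATP carrier (−0.89), Mgme1 (−0.75) and Rrm2b (−0.64). The 6 mitochondrial mRNAs named above did not pass in the same comparison, and the difference between the nuclear and mitochondrial subunits was not tested.

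Female controls had 27 of 51 respiratory subunit rows lower and 3 higher, and 39 of 78 mitochondrial ribosomal proteins lower and 1 higher, beside 13.2% and 15.3% of all genes. These calls rest on TMM scaling: with total counts alone only a few genes of any kind passed in this contrast, as given above. They also rest on the batch term, because most M_D2 controls were batch 2. Median log2 differences of these 2 lists between batches were −1.11 and −0.88. Atp5j (−0.32 ± 0.06), Ndufa1 (−0.45 ± 0.10) and Cox6c (−0.48 ± 0.11) had the lowest p-values among the subunits, and Mrps9, Mrpl32 and Mrpl52 fell by 0.28, 0.49 and 0.40. Of the 33 transcription and maturation genes 7 were higher and 7 lower, and of the 14 replication genes 3 were higher and 2 lower, beside the same 15.3% and 13.2%. Polrmt, the mitochondrial RNA polymerase, was higher in females by 0.46 ± 0.09, as were Lrpprc, which stabilises mitochondrial mRNA (0.28 ± 0.06), Polg, the DNA polymerase (0.32 ± 0.07), and Mfn2 (0.47 ± 0.09). Trmt10c, of mitochondrial RNase P, fell by 0.34 and Ssbp1, which binds single-stranded DNA, by 0.44.

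Across libraries the mean log2 level of the nuclear respiratory subunits and the log2 ratio of mitochondrial mRNA to nuclear protein-coding counts without Lars2 had r = 0.263 and rho = 0.272 in batch 1 (n = 78), a description of a relation chosen after the data were seen. r was 0.303 without the 2 farthest libraries. In batch 2 r was −0.0844 (n = 9) and 0.479 without the 2 farthest.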

How the data were processed

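Gene counts of ribosome-depleted total RNA from 87 of 88 labelled libraries were used as deposited by the authors, as raw counts per gene. Per the submitters' processing notes the tools were Trim Galore, HISAT2, SAMtools, Subread featureCounts and DESeq2 with build mm10; for the annotation used in counting and the settings for strand and reads with several matches, none is given in the sources used here. In addition, 1 labelled F_D2 targeted library was not analysed here, and 1 column with no matching label was not used. Identifiers were matched to GENCODE M21.

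Counts were fitted with edgeR 4.0.16 (quasi-likelihood, robust, TMM scaling, filterByExpr, group plus batch, all libraries in 1 fit), and p-values were adjusted by Benjamini-Hochberg over 25420 genes with a threshold of 0.05. The script was tested on simulated data. Library measures were tested by exact permutation (scipy 1.17.1) with adjustment over 30 tests, and batch tests over 5. Total counts of 12430387 to 69568367 set the counting precision, and levels are CPM, the count over the library total scaled to 1e6. Copies were found with BLAST+ 2.17.0+ at 98% identity or more, over at least 500 matching bases or, on the chosen list and within the stretch of chromosome 1, over any length it matched. Alternatives were DESeq2 1.42.0 size factors and Wald test, limma-voom (limma 3.58.1), no TMM, no filter, no batch term, each arm alone, batch 1 alone, other classes and denominators, and left-out libraries. Named with values were the mRNAs, the rRNAs, the 5 tRNAs with the highest median counts, every member called, up to 3 called genes of each other list by lowest p, and copies with at least 1% of the counts of their mitochondrial gene. mt-Td, mt-Tk, copies under 1% and the genes of the ratios were chosen after their values were seen. Members, lists and tests were chosen with earlier results of these data known.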

Additional observations from a re-analysis of the deposited data

Results flagged for a closer look

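In groups of 4 to 10 libraries, the gap of the highest or lowest library to its nearest neighbour was compared with the range of the group by Dixon's criterion. Of 220 such comparisons 52 passed, or 23.6%. The criterion's chance rate of about 1 in 20 holds for independent, normally distributed values. Most values here are unlogged levels, some of them low, and genes of 1 library are not independent. Library 18421 alone gave 11 of the 52, and 18366 and 18419 gave 8 each. The share is therefore a description and not an excess over chance. Levels here are CPM. The causes were not tested.

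Among the library measures, library 17719 (F_D1 control) had the highest mitochondrial share of its group, 12.8%. The log2 tRNA to mRNA ratio was lowest in library 16760 (F_D1-D2 control), at −6.28. The log2 ratio of mt-Nd6 to the other mRNAs was highest in library 17376 (F_D1 targeted), at −6.33, and lowest in library 18421 (F_D2 control), at −8.85. The same library had the highest log2 ratio of mitochondrial mRNA to nuclear protein-coding counts, −5.52.

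Library 18421 (F_D2 control) stood above the rest of its group for mt-Nd1 (2408), mt-Nd2 (454), mt-Co1 (10713), mt-Co2 (120), mt-Atp8 (46.4), mt-Atp6 (236), mt-Co3 (410), mt-Nd4 (432) and mt-Cytb (1820). In M_D1 targeted, library 18366 was the highest for mt-Rnr1 (25310), mt-Nd2 (617), mt-Co2 (153), mt-Atp6 (8.94), mt-Nd3 (132), mt-Nd4l (28), mt-Nd4 (557) and mt-Nd5 (369). For mt-Nd2 (928), mt-Co2 (162), mt-Atp8 (31.2), mt-Atp6 (71.6), mt-Nd3 (92.8), mt-Nd4l (2.51), mt-Nd5 (485) and mt-Nd6 (136), the highest level in F_D2 targeted was in library 18419. Library 19599 (F_D1-D2 control) stood above the rest of its group for mt-Rnr1 (24463), mt-Co2 (77.3), mt-Atp8 (11.3), mt-Nd4 (488), mt-Nd5 (318) and mt-Cytb (1849). In F_D1 control, library 17719 was the highest for mt-Rnr1 (16962) and mt-Rnr2 (106536). For mt-Atp8 (5.06) and mt-Atp6 (29.8), the highest level in F_D1 control was in library 16585. Library 17376 (F_D1 targeted) stood above the rest of its group for mt-Atp8 (5.29) and mt-Atp6 (41.3). In M_D2 control, library 19099 was the highest for mt-Co3 (777) and mt-Nd3 (50.9). For mt-Nd4 (617) and mt-Cytb (1735), the highest level in M_D1-D2 control was in library 19109. Library 18368 (M_D1 targeted) stood above the rest of its group for mt-Atp8 (12.2). In F_D1-D2 control, library 19598 was the highest for mt-Atp6 (329). For mt-Atp6 (29.9), the highest level in M_D1 control was in library 18068. Library 16564 (F_D1 targeted) stood above the rest of its group for mt-Nd3 (70.5). In M_D1-D2 control, library 19511 was the highest for mt-Nd3 (41.7). For mt-Nd5 (129), the lowest level in M_D1 control was in library 18383.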

How the results depend on the processing

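No mitochondrial gene was called in any arm or in their mean under any of 181 counts with other settings. Between batches 15 genes passed without TMM scaling, all among the 22, and 18 without library 19099, which was left out, like 18366, 18386, 18421, 19596, 19598 and those with Y-linked counts, after seeing the data. Between female and male controls 11 passed with DESeq2 size factors, 11 by the DESeq2 Wald test, 0 without TMM and 3 without library 19099, against 6. No paired analysis was possible because library numbers are not shared between groups.

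Guide differences that did not pass changed sign as follows, and the cause was not tested. Outside the 5 ribosomal loci, a denominator chosen after seeing the data, the mitochondrial share differed by −0.73 points in M_D1 and 1.78 in F_D2. Without the 4 libraries with over 90% of counts in 10 genes, F_D2 had 0.931 for the share, −0.0854 for log2 rRNA to mRNA, −0.18 for mt-Nd6 and 0.11 for mRNA to nuclear counts. F_D1-D2 then had −0.0544 for rRNA and −0.00328 for tRNA to mRNA. With uncopied mRNAs alone, rRNA to mRNA was −0.12 and tRNA to mRNA −0.10 in F_D1-D2, and tRNA to mRNA −0.14 in F_D1. With mt-Rnr2 alone F_D1-D2 had −0.014, and without libraries labelled female that carry Y-linked counts −0.51. Without Lars2 (also chosen after seeing the data), mRNA to nuclear counts differed by 0.15 in F_D2 and 0.00748 in F_D1-D2. In M_D2, rRNA to mRNA was −0.57 within batches, −1.23 in batch 1 and −0.13 in batch 2, tRNA to mRNA was −0.0436 within batches and −0.34 in batch 1, and mt-Nd6 was 0.0597 in batch 2. Between batches mitochondrial mRNA as a percent of protein-coding counts differed by −0.0201 (exact p = 0.866), and the log2 ratio to nuclear counts from uncopied mRNAs by 0.14. With 1 library left out of a group of 4, the mitochondrial share ranged from −0.544 to 0.937 in M_D1 (negative without control 18383), and in M_D1-D2 rRNA to mRNA ranged from −0.60 to 0.0568 and mt-Nd6 from −0.65 to 0.15 (positive without targeted library 19211).

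Of single called genes, 632 fold changes under other settings kept their call and 46 missed the threshold, with none changing sign. Groups of 4 libraries, a batch contrast that rests on 6 batch 1 libraries and low counts of mt-Td, mt-Tk and mt-Ts2 limit the precision.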
